A study of Mus musculus with 28 samples.

Results

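miR-223 and miR-142 are microRNAs (miRNAs) of blood cells, and their mature forms were followed in alveolar macrophages (AM) of mice that breathed filtered air (FA) or ozone (O3). The members were chosen by name and were mmu-mir-223-3p, mmu-mir-223-5p, mmu-mir-142a-3p and mmu-mir-142a-5p (written miR from here on), so 4 of the 607 mature miRNAs listed over the 4 deposited tables. Each table holds 1 genotype and 1 sex. The tables for co-ex males, KO females and KO males list all 4 members, and the table for co-ex females lists 3, without miR-223-5p.

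The co-ex mice express both human transgenes, SP-A1 and SP-A2 (variants 6A2/1A0), on the C57BL/6J SP-A knockout background, and the KO mice lack SP-A, so no group has mouse SP-A. SP-A, surfactant protein A, is an innate immune protein of the airspace that acts on AM. All mice were 12 weeks old, were exposed for 3 h and were lavaged after 4 h of recovery. Each co-ex group of a sex and exposure has 4 libraries and each KO group has 3, which gives 8 groups and 28 libraries. The labels do not say in so many words that a library is 1 animal, so p-values measure the spread between these libraries.

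A mature miRNA is cut as one arm, 5p or 3p, from a hairpin RNA, and it guides the silencing complex to messenger RNAs that pair with its seed. miR-223 is made in cells of the myeloid lineage and is most abundant in neutrophils, where it restrains granulocyte production and inflammasome genes such as Nlrp3. miR-142 is made in nearly all blood cells, and both of its arms are loaded and active. In lavage cells the first is read as a sign of neutrophils and the second as a sign of blood cells in general. AM are themselves myeloid cells and carry both, so neither is specific to one cell type here.

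The mature sequences are shown because the seed sets the family of a miRNA and because the arms of each hairpin are compared further on. They were taken from RefSeq on GRCm38.p6, all 4 members matched, and the seed, bases 2 to 8, is in capitals.
miR-223-3p: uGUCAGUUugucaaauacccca
miR-223-5p: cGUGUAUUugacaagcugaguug
miR-142a-3p: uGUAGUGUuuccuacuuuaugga
miR-142a-5p: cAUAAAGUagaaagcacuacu

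The 4 seeds differ from each other. None of the 4 is shared with any other of the 1738 mature mouse miRNA entries in that RefSeq table, so no listed miRNA that RefSeq also holds is a seed relative of a member. Any listed name absent from RefSeq was not compared. The lengths are 22 bases for miR-223-3p, 23 for miR-223-5p, 23 for miR-142a-3p and 21 for miR-142a-5p, which is close enough for shares of reads to be set side by side. Such shares also depend on how well each sequence ligates to the adapters, which was not measured here.

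Mir223 lies on the X chromosome, and its hairpin of 110 bases spans chrX:96242817-96242926 on the plus strand. The hairpin is within an exon of F630028O10Rik, a non-coding gene that GENCODE classes as antisense. Within it, miR-223-5p covers chrX:96242842-96242864 and miR-223-3p covers chrX:96242884-96242905. Mir142 lies on chromosome 11, and its hairpin of 64 bases spans chr11:87756864-87756927 on the plus strand, within an intron of the non-coding gene Mir142hg. There miR-142a-5p covers chr11:87756867-87756887 and miR-142a-3p covers chr11:87756903-87756925. A separate hairpin, Mir142b, lies over Mir142 on the opposite strand, and its mature miR-142b was listed only in the table for KO males, with 0 to 12 reads.

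The libraries held 41542 to 2082034 reads on miRNAs, with a median of 490152, and the co-ex females were the shallowest table. Values are normalized read counts, that is reads over the size factor of the library. The tables were scaled separately, so levels are set across tables as shares of the miRNA reads. Small RNA holds no protein-coding macrophage markers, so the AM label could not be checked against them. miRNAs of activated macrophages (miR-21a, miR-146a, miR-146b and miR-155) made up 3.90 to 30.3% of the reads of a library. One KO male FA library, replicate 3, stood apart, with a summed value of 48555 for miRNAs of mesenchyme and vessel against 1052 and 1186 in the other FA libraries. Its sum for epithelial miRNAs was 43296 against 3458 and 4119. The log2 changes of the 4 members in KO males, and the marker lists, are therefore also given without it.

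miR-223-3p was the most abundant member in 27 of the 28 libraries, and the other arm of each hairpin was rare. miR-223-3p ranged from 0.111% of reads, in a co-ex female O3 library (95% Wilson interval 0.0830 to 0.148%), to 1.53%, in a co-ex male FA library (1.47 to 1.60%). It ranked between 16 and 78 among the miRNAs of a library. miR-142a-5p ranged from 0.0361% (0.0219 to 0.0596%) to 0.454% (0.441 to 0.469%) and ranked between 33 and 128. Intervals and limits from counts cover counting error only.

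The other arms were lower by far. miR-142a-3p reached at most 0.0435% of reads (0.0360 to 0.0525%), and miR-223-5p at most 0.0320% (0.0282 to 0.0363%) in the 20 libraries whose tables list it. miR-142a-3p had 0 reads in 2 co-ex female libraries, which allows a share of up to 0.00321% and 0.00722%. miR-223-5p had 0 reads in 2 co-ex male FA libraries, which allows up to 0.00237% and 0.00165%.

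**Figure D1:**
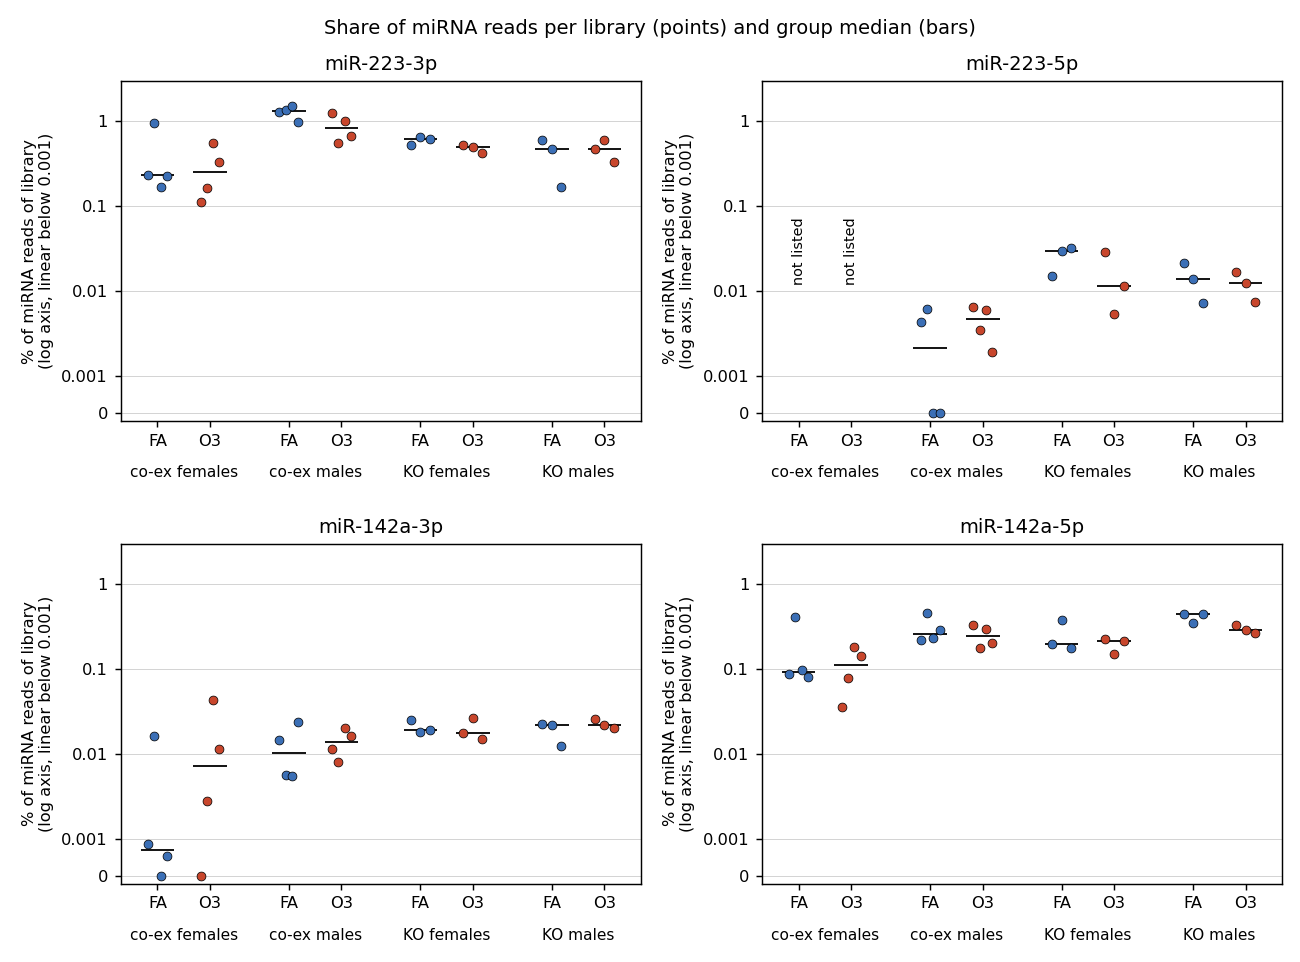
Share of the miRNA reads of each library taken by each member (y axis, %, log scale above 0.001 and linear below), by genotype, sex and exposure. Points are libraries and bars are group medians. FA and O3 points overlap in nearly every pair, miR-223-3p is highest in co-ex males, and single FA libraries stand above or below their group in co-ex females and KO males.

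Over the 8 groups, miR-223-3p was highest in co-ex males after FA, at 1.29% ± 0.232 (SD, n = 4), followed by co-ex males after O3 at 0.878% ± 0.326 (n = 4). KO females had 0.604% ± 0.0674 after FA and 0.489% ± 0.0554 after O3 (n = 3 each). KO males had 0.468% ± 0.134 after O3 and 0.416% ± 0.221 after FA (n = 3 each). Co-ex females were lowest, with 0.398% ± 0.379 after FA and 0.292% ± 0.201 after O3 (n = 4 each). Each group in this order overlapped with the next. Genotype and sex go with the table here, and the tables differ in depth and in the number of miRNAs listed (368 to 565). For all members, differences between tables in these shares cannot be told apart from that.

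miR-142a-5p had another order. It was highest in KO males after FA, at 0.412% ± 0.0558 (n = 3), followed by co-ex males after FA at 0.298% ± 0.109 (n = 4) and KO males after O3 at 0.295% ± 0.0310 (n = 3). It was lowest in co-ex females, at 0.168% ± 0.161 after FA and 0.110% ± 0.0643 after O3 (n = 4 each). Neighbours in this order overlapped too. The rare arms were highest in KO mice: miR-142a-3p had 0.0227% ± 0.00283 in KO males after O3, and miR-223-5p had 0.0257% ± 0.00925 in KO females after FA (n = 3 each). The only gap between neighbours was for miR-223-5p, whose KO male O3 libraries (0.00742 to 0.0167%) lay above those of co-ex males after O3 (0.00191 to 0.00646%).

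The comparison of O3 with FA within each table asks whether these miRNAs moved with the oxidative stress. None of the 4 members passed the test for a change with O3 in any table. Of 14 pairs of member and table that passed the filter on low values, 0 were called by limma at an adjusted p of 0.1, and 0 had an unadjusted p under 0.05, as did 5.9% of all miRNAs tested in co-ex females, 3.53% in co-ex males, 25.7% in KO females and 7.27% in KO males. The edgeR and DESeq2 tests on the recovered reads also called 0. Of the 14 estimates, 10 were below 0, that is lower after O3. In such bulk samples fewer cells of a type and less RNA per cell cannot be told apart.

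The number of miRNAs called differed between the tables, and in KO males it turned on 1 library. In co-ex females 0.369% of the 271 miRNAs tested were called, and in co-ex males 0% of 312, where 11 had an unadjusted p under 0.05 and both edgeR and DESeq2 also called 0. In KO females 13.2% of 319 were called. In KO males 0.909% of 440 were called, that is 4, but without FA replicate 3 it was 86, or 18% of 479. No member was among the calls in any of these.

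**Figure D2:**
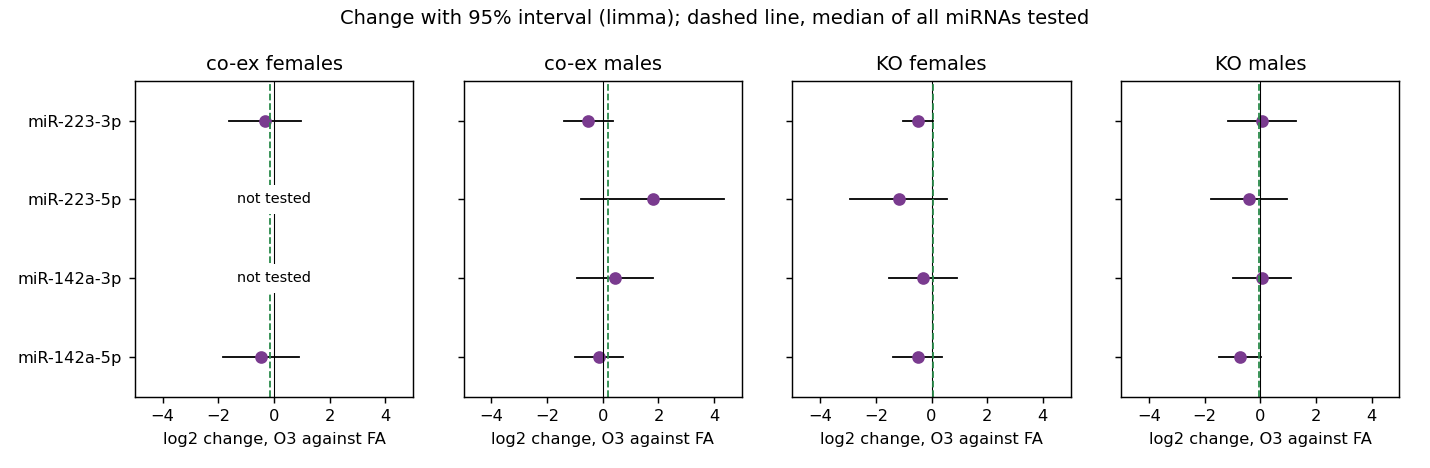
log2 change of each member between O3 and FA (x axis; below 0 is lower after O3) in each table, with its 95% interval from limma. The dashed line is the median of all miRNAs tested in that table. All 14 intervals include 0, and the 2 that come nearest to leaving it are miR-223-3p in KO females and miR-142a-5p in KO males.

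miR-223-3p, the arm read as a sign of neutrophils, was called in no table. In co-ex females its normalized values were 361, 1632, 272 and 321 after FA and 185, 256, 819 and 541 after O3. The groups overlapped, and FA replicate 2 was far above the other FA libraries. The log2 change was -0.32 (SE 0.61, limma, adjusted p = 0.913), which as a fold of O3 over FA has a 95% interval of 0.324 to 1.98. Without FA replicate 2 the estimate turned to 0.27.

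In co-ex males miR-223-3p had values of 4955, 4566, 5280 and 2605 after FA and of 4499, 2064, 3779 and 2122 after O3. All 4 O3 libraries were below the FA median, but 1 FA library was among them. This gave a log2 change of -0.52 (SE 0.40, limma, adjusted p = 0.944), with an interval of 0.384 to 1.27 for the fold.

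In KO females the values of miR-223-3p were 3000, 3946 and 3212 after FA and 2685, 2421 and 2091 after O3. Here each O3 library was below each FA library, as was the case for 12.2% of all miRNAs tested in this table. O3 against FA gave a log2 change of -0.49 (SE 0.23, limma, adjusted p = 0.233), with an interval of 0.489 to 1.03 for the fold. As shares of all miRNA reads the groups overlapped, with 0.530 to 0.663% after FA and 0.427 to 0.533% after O3, and the log2 change scaled to the total was -0.30.

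In KO males miR-223-3p had values of 8501, 6370 and 2498 after FA and of 5620, 6883 and 4029 after O3. The lowest and the highest library were both FA, and the lowest was replicate 3, which stood apart in its tissue miRNAs. The log2 change was 0.07 (SE 0.52, limma, adjusted p = 0.985), with an interval of 0.448 to 2.45 for the fold. Without FA replicate 3 the estimate was -0.45 (adjusted p = 0.315), and it was also below 0 by edgeR (-0.05) and DESeq2 (-0.07).

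miR-142a-5p, the abundant arm of the pan-leukocyte hairpin, had an estimate below 0 in each of the 4 tables. In KO males its values were 6290, 4619 and 6531 after FA and 3865, 3326 and 3277 after O3. Each O3 library was below each FA library, as for 5% of the miRNAs tested in this table, and this also held for shares of reads (0.348 to 0.446% and 0.268 to 0.329%). limma gave a log2 change of -0.72 (SE 0.31, adjusted p = 0.637) with a fold interval of 0.362 to 1.01, and of -0.48 when scaled to the total. Without FA replicate 3 it was -0.63 (adjusted p = 0.101), the smallest adjusted p that any alternative gave a member within a table.

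In KO females miR-142a-5p had values of 1127, 2273 and 932 after FA and of 1125, 715 and 1044 after O3. The groups overlapped and FA replicate 2 was highest. O3 against FA gave a log2 change of -0.50 (SE 0.39, limma, adjusted p = 0.507), and it was -0.12 without that library. In co-ex females the values were 133, 691, 161 and 113 after FA and 60.3, 123, 266 and 228 after O3, with a log2 change of -0.47 (SE 0.63, limma, adjusted p = 0.891) that turned to 0.12 without FA replicate 2. In co-ex males the values were 842, 1511, 790 and 772 after FA and 1172, 650, 1093 and 645 after O3. The log2 change there was -0.13 (SE 0.40, limma, adjusted p = 0.944), and it turned to 0.10 without FA replicate 2, the highest library.

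miR-142a-3p, the rare arm, was listed in all tables but passed the filter in 3. In co-ex females it rested on 1, 79, 0 and 1 reads after FA and on 0, 5, 108 and 30 after O3. The value of FA replicate 2 was 27.3 against at most 1.31 in the other FA libraries, and O3 replicates 3 and 4 had 63.9 and 18.6. Unfiltered, the log2 change was 1.46 (SE 1.41, limma, adjusted p = 0.925). In co-ex males its values ran from 18.7 to 62.9 after FA and from 29.1 to 75.6 after O3, with a log2 change of 0.45 (SE 0.62, limma, adjusted p = 0.944) that was 0.17 without FA replicate 2 and 0.74 without FA replicate 4.

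The KO tables had more reads of this arm, at least 29 in each library. In KO females its values were 141, 108 and 101 after FA and 89.1, 125 and 72.6 after O3, with a log2 change of -0.30 (SE 0.53, limma, adjusted p = 0.772). In KO males they were 322, 289 and 179 after FA and 303, 254 and 248 after O3, with a log2 change of 0.06 (SE 0.44, limma, adjusted p = 0.982). That last estimate turned to -0.19 without FA replicate 3.

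miR-223-5p, the rare arm of the myeloid hairpin, had an estimate above 0 in co-ex males and below 0 in both KO tables, with wide errors. In co-ex males its values were 16.5, 20.5, 0 and 0 after FA and 22.9, 12.8, 22.3 and 6.07 after O3. The 2 libraries at 0 allow values of up to 8.17 and 4.38, that of 3 reads. The log2 change was 1.79 (SE 1.18, limma, adjusted p = 0.944) on values with 1 added, and it was 1.08 without FA replicate 3 and 2.56 without FA replicate 2. In KO females it had values of 85.2, 179 and 166 after FA and of 143, 25.8 and 56.4 after O3, a log2 change of -1.18 (SE 0.75, limma, adjusted p = 0.417). O3 replicate 2 there had 6 reads in a library of 111080, and without it the log2 change was -0.59, while without O3 replicate 1 it was -1.81. In KO males the values were 307, 184 and 106 after FA and 196, 143 and 90.8 after O3, a log2 change of -0.41 (SE 0.58, limma, adjusted p = 0.957) that was -0.80 without FA replicate 3.

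Averaged over the 4 tables, both abundant arms had a mean change below 0, and neither was called. The mean log2 change was -0.32 for miR-223-3p (SE 0.27, limma, adjusted p = 0.487) and -0.46 for miR-142a-5p (SE 0.26, limma, adjusted p = 0.289). That of miR-223-3p was -0.17, and that of miR-142a-5p -0.31, without co-ex female FA replicate 2. Those were the highest of the fits that left out a library. The lowest were -0.45 for miR-223-3p, without KO male FA replicate 3, and -0.53 for miR-142a-5p, without co-ex female O3 replicate 3. In the fit with all libraries 20% of 230 miRNAs were called. The interval for miR-223-3p, -0.88 to 0.25 on the log2 scale, reached further below 0 than above it. That for miR-142a-5p reached from -1.001 to 0.088.

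The response was also compared between sexes and between genotypes. The change of miR-223-3p differed by -0.19 (SE 0.79, limma, adjusted p = 0.981) between co-ex males and females and by 0.56 (SE 0.58, limma, adjusted p = 0.878) between KO males and females. Between genotypes it differed by 0.17 (SE 0.82, limma, adjusted p = 0.941) in females, as co-ex minus KO, and by -0.58 (SE 0.65, limma, adjusted p = 0.949) in males. These differences turned on single libraries. Without KO male FA replicate 3 the difference between KO sexes was 0.043 and that between genotypes in males -0.064, and without KO male FA replicate 1 they were 0.93 and -0.95. Without co-ex female FA replicate 2 the difference between co-ex sexes was -0.78 and that between genotypes in females 0.76. Without co-ex female O3 replicate 3 these 2 turned to 0.17 and -0.20. For miR-142a-5p the largest of these differences was 0.59 (SE 0.52, limma, adjusted p = 0.949), co-ex minus KO in males. No member was called in any of them. Of all miRNAs, 8.71% of 241 were called in the comparison of co-ex with KO females and 0% in the other 3, where 8 of 249, 17 of 309 and 6 of 305 had an unadjusted p under 0.05 (co-ex sexes, KO sexes and males of both genotypes). These differences were fitted by limma only.

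In co-ex females the abundant arms ran with the depth of the library by Pearson r, but not by Spearman's rho after adjustment. This comparison was chosen after the data were seen, and the adjusted p-values do not cover that choice. The highest value of miR-223-3p was in the deepest library and the lowest in the shallowest, and the value (log2) correlated with the reads of the library (log2) over the 8 libraries with a Pearson r of 0.865 (exact permutation p = 0.00561, adjusted p = 0.0324 over 14 pairs of member and table). Spearman's rho was 0.857 (exact permutation p = 0.0107, adjusted p = 0.150). The median r of all 271 miRNAs tested in this table was 0.113, and 4.06% had an r at least as high. Without the deepest and the shallowest library, FA replicate 2 and O3 replicate 1, r was 0.684 over 6 libraries (exact permutation p = 0.149), so the relation rests in part on those libraries.

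For miR-142a-5p in co-ex females r was 0.876 (exact permutation p = 0.00694, adjusted p = 0.0324) and rho was 0.738 (exact permutation p = 0.0458, adjusted p = 0.226), with r = 0.522 over 6 libraries (exact permutation p = 0.285). In the other tables r of these arms ranged from 0.0111 for miR-142a-5p in KO males to 0.660 for miR-142a-5p in co-ex males, and none had an adjusted p under 0.1. miR-223-5p in co-ex males had r = 0.878 (exact permutation p = 0.00258, adjusted p = 0.0324) and a rho of 0.731 (exact permutation p = 0.0485, adjusted p = 0.226). Without FA replicates 3 and 4, which have 0 reads of it, r was 0.765 over 6 libraries (exact permutation p = 0.121), so that relation rests in part on them. The part of depth in the change between FA and O3 was not tested.

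**Figure D3:**
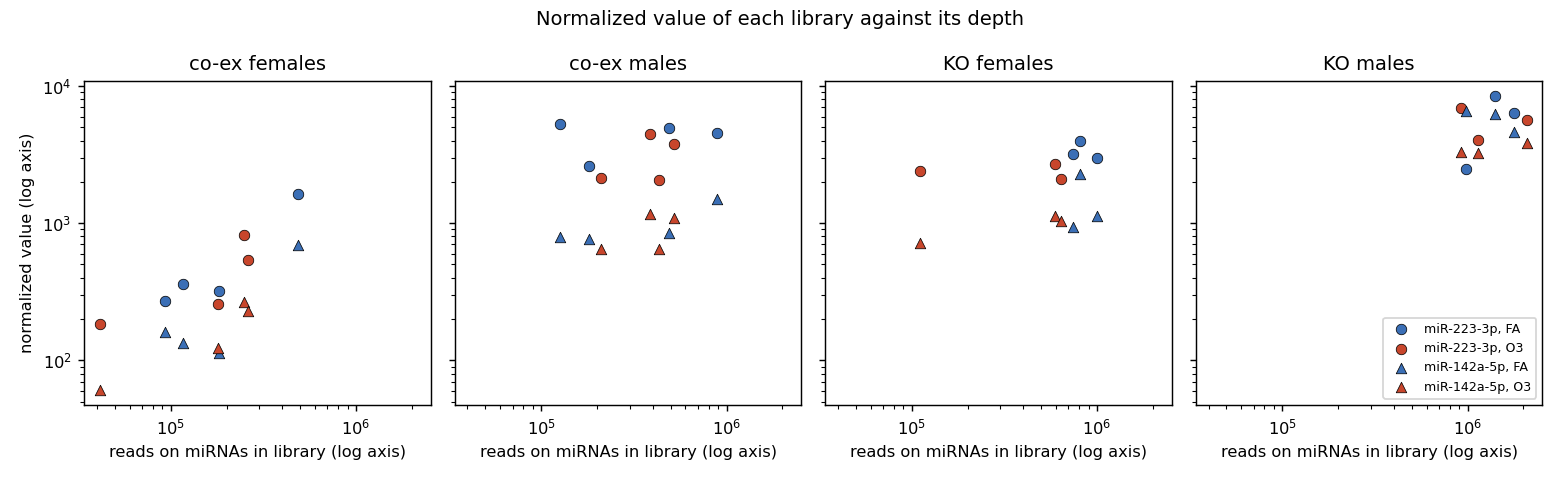
Normalized value of miR-223-3p (circles) and miR-142a-5p (triangles) in each library against the reads on miRNAs in that library, both on log axes, by table and exposure. In co-ex females the points rise with depth, from a miR-223-3p value of 185 at 41542 reads to 1632 at 488993 reads.

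The ratio of members within a library does not depend on the size factor. In all 28 libraries miR-142a-5p had more reads than miR-142a-3p, and the ratio of 3p to 5p ran from 0.00541 to 0.241 with a median of 0.0650. The lowest ratio comes from co-ex female FA replicate 3, which had 0 reads of miR-142a-3p and 92 of miR-142a-5p, so it rests on the 0.5 reads added to each count. In all 20 libraries that list both, miR-223-3p had more reads than miR-223-5p, with a ratio of 18.7 to 3877 and a median of 46.0. The 2 highest ratios come from the co-ex male FA libraries without a miR-223-5p read, where they rest in the same way on the reads added. So the abundant arm was 3p for miR-223 and 5p for miR-142a in each of these libraries.

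The arm ratio of miR-142a was higher after O3 in the mean of each table, and the difference was largest in co-ex females, where the rare arm had 0 to 5 reads in 5 of 8 libraries. There the ratio of 3p to 5p had a geometric mean of 0.0135 after FA (0.00541 to 0.0398) and of 0.0705 after O3 (0.0323 to 0.241), a log2 difference of 2.39 (exact permutation p = 0.0857). The low end of both ranges is a library with 0 reads of the rare arm. In co-ex males the difference was 0.58 (exact permutation p = 0.457), with 0.061 when FA replicate 2 was left out and 0.97 when FA replicate 4 was. In KO females it was 0.20 (exact permutation p = 0.800), and it turned to -0.23 without FA replicate 2.

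In KO males the arm ratio was 0.0757 to 0.0785 after O3, above the 0.0275 to 0.0627 after FA. The log2 difference was 0.79 (exact permutation p = 0.100, the smallest that 3 against 3 allows), and it was 0.44 without FA replicate 3. Over the 4 tables together the mean difference was 0.99 (exact permutation p = 0.00778, adjusted p = 0.0961 over 14 tests). Without co-ex females, a choice made after the data were seen, it was 0.52 (exact permutation p = 0.117), and with medians in place of means 0.69 (exact permutation p = 0.0798).

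The ratio of the neutrophil-linked arm to the rare pan-leukocyte arm, miR-223-3p to miR-142a-3p, ran from 12.8 to 313. The 313 is again co-ex female FA replicate 3, with 156 reads against 0, and is set by the 0.5 reads added. Over the 4 tables the log2 difference between O3 and FA was -0.85 (exact permutation p = 0.0137, adjusted p = 0.0961). This ratio shares the rare arm miR-142a-3p with the arm ratio of miR-142a, so it is not a result separate from that one. In co-ex females alone the difference was -2.25 (exact permutation p = 0.0571), from a geometric mean of 175 to 36.9, and without that table it was -0.38 (exact permutation p = 0.193). Co-ex males had a difference of -0.96 (exact permutation p = 0.229), which was -0.60 without FA replicate 3 and -1.49 without FA replicate 4. KO females had a difference of -0.20 (exact permutation p = 0.5). In KO males it was 0.00 (exact permutation p = 1.00), with geometric means of 20.05 after FA and 20.1 after O3, and -0.26 without FA replicate 3.

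Against the abundant arm, miR-142a-5p, the ratio of miR-223-3p ran from 0.383 to 6.67 with a median of 2.69, and FA and O3 libraries overlapped in each table. This ratio was chosen after the low reads of miR-142a-3p were seen. The difference between O3 and FA was 0.14 in co-ex females (exact permutation p = 0.514), -0.38 in co-ex males (exact permutation p = 0.371), 0.01 in KO females (exact permutation p = 1.00) and 0.79 in KO males (exact permutation p = 0.400). In KO males it was 0.18 without FA replicate 3. Over the 4 tables it was 0.14 (exact permutation p = 0.579), and -0.014 without that library. The one library in which miR-142a-5p had more reads than miR-223-3p was KO male FA replicate 3, at 0.383.

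For the arms of miR-223, the ratio of 3p to 5p in co-ex males was 220 to 3877 after FA and 156 to 311 after O3, a log2 difference of -2.29 (exact permutation p = 0.0857). In KO females and KO males that difference was 0.67 (exact permutation p = 0.5) and 0.48 (exact permutation p = 0.200). Without O3 replicate 2 the difference in KO females was 0.091, and without O3 replicate 1 it was 1.20. That in co-ex males was -1.63 without FA replicate 3, which had 0 reads of the rare arm.

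**Figure D4:**
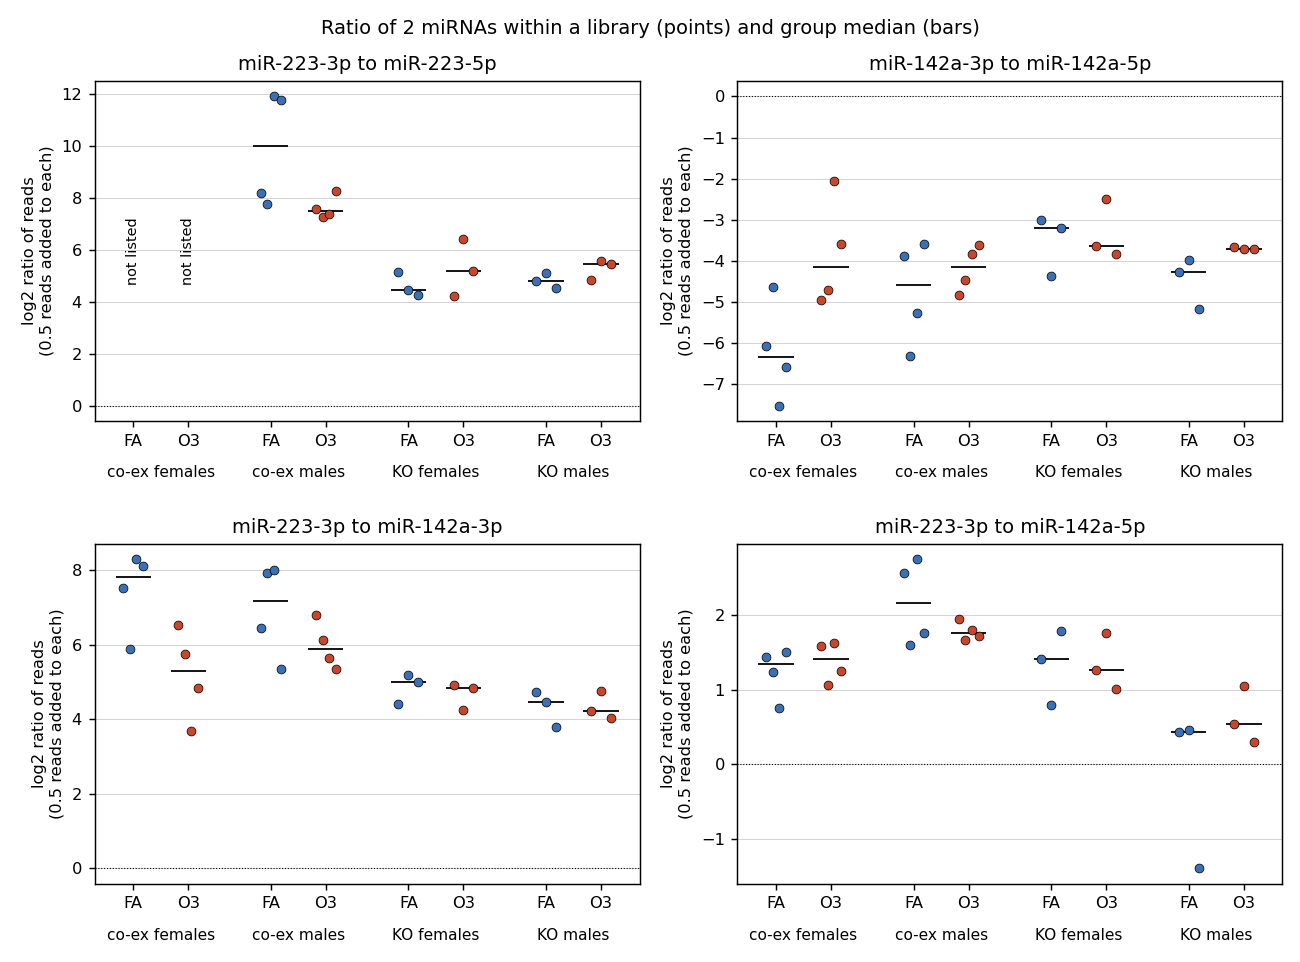
log2 ratio of the reads of 2 members within each library (y axis, 0.5 reads added to each), by group. Points are libraries, bars are group medians and the dotted line is a ratio of 1. The arm ratio of miR-142a is below 1 in every library, and the co-ex libraries spread most in the ratios that hold a rare arm, which has few or no reads there.

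Across libraries the abundant arms went with each other. After centring each table on its mean, miR-223-3p was most like miR-23b-3p (Pearson r = 0.774), miR-194-5p (r = 0.757) and miR-142a-5p (r = 0.736), among 229 other miRNAs over the 28 libraries. miR-142a-3p was most like miR-30d-5p (r = 0.786), miR-30e-5p (r = 0.746) and miR-503-5p (r = 0.713), and its r was 0.630 with miR-223-3p and 0.562 with miR-142a-5p, the other arm of its own hairpin. These r values describe libraries that share their depth and scaling, and they carry no test.

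miRNAs of other cell types were set beside the members. None of the lymphocyte miRNAs (miR-150 and miR-342) was called in any table with all libraries, with list medians of -0.98 in co-ex females, -0.34 in co-ex males, -0.83 in KO females and -1.04 in KO males. All miRNAs tested had medians of -0.16, 0.18, 0.06 and -0.04. In KO males the list was split, with -2.23 for miR-150-5p and -2.45 for miR-150-3p but 0.14 for miR-342-3p and 0.50 for miR-342-5p. FA replicate 3 had a value of 8426 for miR-150-5p, where the other 5 libraries had at most 163, and 1469 for miR-342-3p, the lowest of the 6. Without that library the list median was -0.55, miR-150-5p was at -0.29, and miR-342-3p was called lower, at -0.86 (limma, adjusted p = 0.0172). In KO females miR-342-3p, the most abundant of the list, had a value of 5143 ± 587 after FA and 3374 ± 1021 after O3 (SD, n = 3, limma, adjusted p = 0.188).

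In KO females epithelial miRNAs did move. Of 13 in the list 12 were tested, all with estimates above 0, and 10 were called higher, with a list median of 3.89. Among them miR-34b-3p, a miRNA of ciliated cells, went from 299 ± 196 to 4845 ± 2027 (SD, n = 3, limma, adjusted p = 0.00523). The summed value of the list was 1337 to 2897 after FA and 14598 to 25378 after O3, which was up to 5.30% of the reads.

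In KO males all epithelial miRNAs but miR-203-3p (-0.04) had estimates above 0. Of the 13, 1 was called higher, miR-34b-3p, named here after its values were seen, and the list median was 1.83. The summed value was 32442 to 41314 after O3, above FA replicates 1 and 2 and below FA replicate 3, whose sum is given above. Without that library, a choice made after its high epithelial sum was seen, 12 of the 13 were called higher, with a list median of 2.94. Leaving out an FA library with a high sum in itself favours higher calls after O3, so this count is no separate test of a rise. Over all libraries miR-34b-3p went from 665 ± 556 to 6646 ± 1307 (SD, n = 3, limma, adjusted p = 0.0756). In co-ex females and co-ex males none of 13 and 11 tested was called. Of 3 red cell miRNAs tested in co-ex females 1 was called lower after O3, miR-486b-5p, with 7675 ± 9772 after FA and 514 ± 101 after O3 (SD, n = 4, limma, adjusted p = 0.0341). The others tested, miR-451a and miR-144-5p, also had estimates below 0 (-2.28 and -2.08) but were not called. None of the red cell miRNAs was called in the other tables, nor in KO males without FA replicate 3. Of the mesenchyme and vessel list and of the activated macrophage list none was called in any table with all libraries. Without KO male FA replicate 3, 4 of 6 mesenchyme and vessel miRNAs were called higher in KO males, and 2 of 6 activated macrophage miRNAs, miR-21a-5p and miR-146b-5p, were called lower. That library was left out after its high mesenchyme and vessel sum was seen. Its summed value for activated macrophage miRNAs was 57095, against 430194 and 316786 in the other FA libraries. These counts are therefore no separate tests either. The part of any of these lists in the values of the members was not tested.

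**Figure D5:**
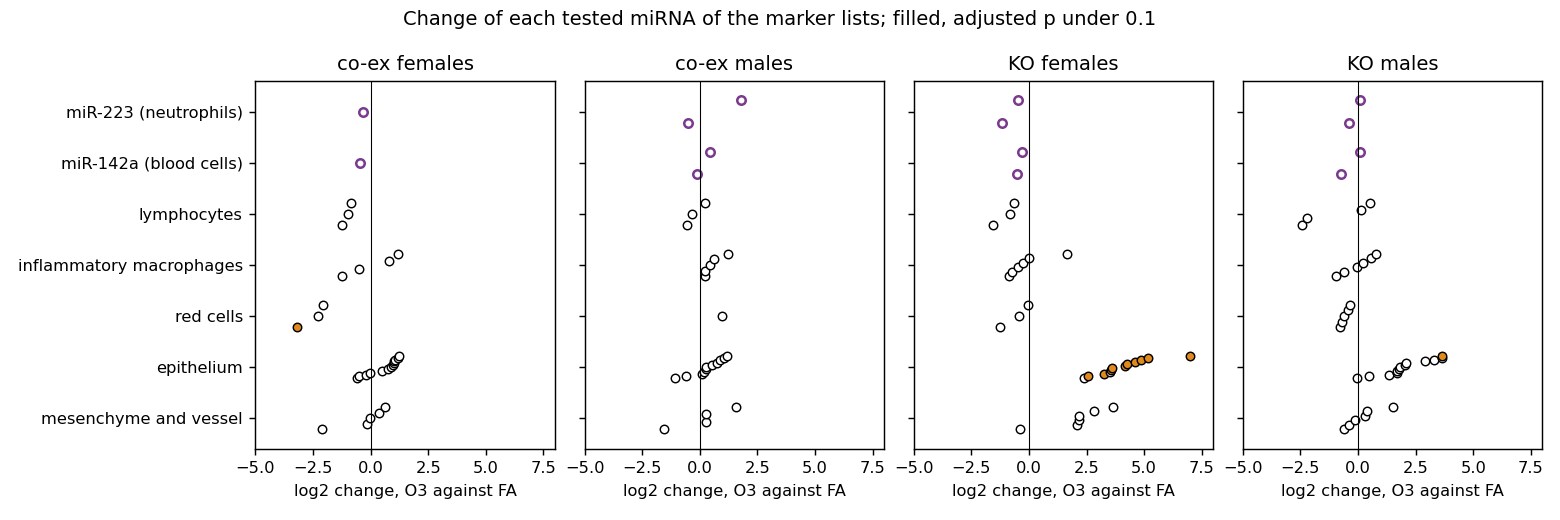
log2 change between O3 and FA (x axis) of each tested miRNA in the marker lists, by table, with the members in the top rows outlined in purple. Filled points have an adjusted p under 0.1. None of the members is filled, while 10 of 12 epithelial miRNAs are in KO females.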

How the data were processed

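Small RNA libraries of AM from 28 samples in 8 groups were analysed from 4 tables, and groups came from the sample titles. According to the methods and the labels, the authors filtered reads with CASAVA, trimmed them with the FASTX-Toolkit, removed adapters, counted miRNAs with Chimira and called differences with edgeR and TCC. The aligner's genome build and miRBase release are not given in the sources used here. The deposited values are a signal, reads divided by a size factor per library, equal to DESeq2's median of ratios, and replicates were not pooled. In each library 100% of the values were whole multiples of one step within a tolerance of 0.1, which gave back the reads. The deposited tables also hold the authors' own comparisons, as a log2 fold change, p- and q-values (p-value) and a score that ranks miRNAs by p-value, and none of these was used.

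O3 was compared with FA within each table by limma 3.58.1 (trended) on values to which 1 was added before taking log2. A miRNA entered if 5 or more was reached in a number of libraries equal to the smaller group, p-values were adjusted over all such miRNAs (Benjamini-Hochberg), and calls were made at 0.1. A fold on this scale tends to understate the change of low miRNAs whose values are all above 0. Where libraries have 0 reads, it depends on the 1 added and can exceed the ratio of the group means. For miR-223-5p in co-ex males the fold of O3 over FA was 3.47 by limma, and the ratio of the means was 1.73. Differences between tables were contrasts of the within-table changes. Ratios of members within a library (0.5 reads added) were compared by two-sided exact permutation tests, within tables and with relabelling within each table for the tables together. The smallest p was 0.0286 for 4 against 4 and 0.1 for 3 against 3. Of 15 planned ratio tests, 14 could be made, since the co-ex female table does not list miR-223-5p. Correlations with depth were chosen after the data were seen. In each of 36 replicate pairs the variance was 21.8 times that of counting or more, so no library repeats another. R 4.3.3, edgeR 4.0.16, DESeq2 1.42.0, Python 3.11.15, numpy 2.4.6, pandas 2.3.3, matplotlib 3.10.9 and scipy 1.17.1 were used, and the fit was tested on simulated data.

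The miRNAs named are the 4 members, the 3 most like miR-223-3p and the 3 most like miR-142a-3p, and from each marker list the most abundant or defining miRNAs. The members and lists were chosen with earlier results of these data known. Alternatives were total-count and TMM scaling, no filter, a pseudocount of 0.1, edgeR, DESeq2, the replicate number as a block, and each library left out.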

Additional observations from a re-analysis of the deposited data

Results flagged for a closer look

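In groups of 4 libraries, the gap of the highest or lowest library to the nearest other was compared with the range of the group by Dixon's criterion. This was done for 14 groups of values of a member and 14 groups of ratios of 2 members in the co-ex tables. For normally spread values the criterion flags about 1 group in 20 by chance. That rate need not hold here, since member values were not put on the log scale (ratios were) and groups share libraries. A library stood apart in 4 of the 28, each time in the values of a member. Of these, 3 were FA replicate 2 of the co-ex females, the deepest library of that table. It had a normalized value of 1632 for miR-223-3p, against 272 to 361 in the other 3 FA libraries. For miR-142a-5p it had 691 against 113 to 161, and for miR-142a-3p 27.3 against 0 to 1.31. The other was FA replicate 2 of the co-ex males, also the deepest of its table, with 1511 for miR-142a-5p against 772 to 842. The KO groups have 3 libraries each and were not tested in this way.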

How the results depend on the processing

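No member was called under any of 194 alternatives within tables (smallest adjusted p 0.101) or of 276 alternatives for the mean over tables and the differences between tables (smallest adjusted p 0.196), and 139 of the 194 were below 0. In KO males the log2 change of miR-223-3p turned to -0.050 by edgeR and -0.071 by DESeq2. The difference of co-ex minus KO in females turned to -0.026 for miR-223-3p and -0.17 for miR-142a-5p under total-count scaling. The number of miRNAs called in KO males was 4, and it was 2 by edgeR, 15 by DESeq2 and 1 with the replicate block. With 1 read added to each, the difference was -2.07 for miR-223-3p to miR-142a-3p and 2.21 for the arms of miR-142a in co-ex females, each with an exact permutation p of 0.0286. With medians, the difference was -0.25 for miR-223-3p to miR-142a-3p in KO males, -0.44 for the arms of miR-142a in KO females and 0.69 over the 4 tables, and for miR-223-3p to miR-142a-5p -0.16 in KO females and -0.095 over the 4 tables. Without co-ex females, the differences over the tables were -0.38 and 0.52. The cause of these shifts was not tested.

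Leaving out one library at a time, the log2 change of miR-223-3p ran from -0.69 to 0.27 in co-ex females (highest without FA replicate 2) and from -0.45 to 0.43 in KO males (lowest without FA replicate 3). That of miR-142a-5p ran from -0.75 to 0.12 in co-ex females and from -0.28 to 0.10 in co-ex males, and that of miR-142a-3p from -0.19 to 0.23 in KO males. The difference between co-ex sexes ran from -0.78 to 0.17 for miR-223-3p and from -0.26 to 0.62 for miR-142a-5p, and between KO sexes from -0.60 to 0.038 for miR-142a-5p. The difference of co-ex minus KO in females ran from -0.20 to 0.76 and from -0.35 to 0.62. For miR-223-3p to miR-142a-3p the range was -0.42 to 0.011 in KO females and -0.26 to 0.20 in KO males. For the arms of miR-142a it was 1.80 to 2.91 in co-ex females and -0.23 to 0.47 in KO females. For miR-223-3p to miR-142a-5p it was -0.018 to 0.25 in co-ex females, -0.26 to 0.23 in KO females and -0.014 to 0.22 over the 4 tables. The number of miRNAs called ran from 0 to 1 in co-ex females, 25 to 52 in KO females, 0 to 86 in KO males (86 without FA replicate 3), 0 to 1 for the co-ex sexes and 9 to 31 for co-ex against KO females.

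FA and O3 libraries of the same number correlated in their deviations with r of -0.28 to 0.23. These r were not set against those of libraries of unlike number, so pairing by number is not excluded. The replicate block changed no call of a member, with 37 miRNAs called in KO females, 40 in the mean over tables and 14 in the comparison of co-ex with KO females, against 42, 46 and 21. Depth limits the rare arms most: 3 reads are worth a value of 1.04 to 12.9, and groups of 3 cannot give an exact permutation p below 0.1.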
